A study of Mus musculus with 18 samples.

Results

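Forepaws of Sema3b-/- mice were set against forepaws of wild-type (WT) mice over control and arthritic animals together, so as to find the RNAs whose level went with the genotype in both conditions. All 18 libraries of the series enter the comparison, 9 Sema3b-/- and 9 WT, with treatment (control or arthritis) as a block. They fall into 4 groups: 4 Sema3b-/- control, 4 WT control, 5 Sema3b-/- arthritis and 5 WT arthritis libraries. Each is 1 forepaw sample of a C57BL/6 mouse, measured by CEL-seq, which adds a sample barcode during reverse transcription and reads RNAs near their 3' end. The loss of Sema3b is given by the labels for the whole animal, with no Cre or other allele named. The sources used here do not give the age of the mice, the arthritis model, its duration, the origin of the mutant line or whether WT animals were littermates. Nothing in the labels states that libraries come from separate animals, so the spread behind each p-value is that among these libraries and may in part be technical.

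Class 3 semaphorins are secreted proteins that bind neuropilins and signal through plexins, and were first described as cues that steer growing axons. Sema3b is one of 7 mouse members and lies on chromosome 9. In joints, members of the family are known from synovial fibroblasts, endothelium and bone cells, where they act on cell migration, vessel growth and osteoclast formation.

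Total reads per library ran between 1732783, in Sema3b-/- control replicate 1, and 19464888, in WT arthritis replicate 2, with a median of 7279063. Xist and the Y-linked genes gave 2 females and 2 males in Sema3b-/- control, 4 females and 0 males in WT control, 4 females and 1 male in Sema3b-/- arthritis, and 1 female and 4 males in WT arthritis. Sex therefore differed between genotypes in opposite ways in the 2 conditions. Tissue content varied widely: 12 epidermal genes took between 0.0667 and 5.36% of the normalized counts in Sema3b-/- libraries, against 0.0502 to 2.41% in WT libraries. WT arthritis replicate 1 stood apart, with 39.4% of its reads from mitochondrial genes, against 15.7 to 24.1% in the Sema3b-/- libraries and 18.3 to 27.9% in the other WT libraries.

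Few RNAs differed between genotypes over both conditions together. Of 13809 genes tested with limma, 9 passed an adjusted p of 0.05, which is 0.0652% of those tested. Of these, 1 was higher in Sema3b-/- forepaws (0.00724%) and 8 were lower (0.0579%). Leaving out Sema3b-/- control replicate 1 gave 19 genes, leaving out WT arthritis replicate 1 gave 11, and leaving out any other library gave 4 to 10. The lower genes were Sema3b, the long non-coding RNA Gas5, the neighbouring genes Abhd14a and Abhd14b, the retinol carrier Rbp4, the cell cycle inhibitor Cdkn1b, Lrrn4cl and Snapc3, and the higher gene was Rangap1. At an unadjusted p under 0.05 there were 609 genes higher in Sema3b-/- (4.41% of those tested) and 718 lower (5.20%), together 9.61%. The median log2 fold change of all genes was 0.00 and the median size of a change was 0.16 on the log2 scale. Fold changes here are on the scale of log2 of the normalized count plus 1, Sema3b-/- over WT, and they understate changes of genes with low levels.

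Sema3b was the check of the genotype labels and had the lowest p of all genes. The 4 Sema3b-/- control libraries held 0, 2.23, 2.37 and 7.20 normalized counts, against 49.7, 44.2, 67.5 and 62.2 in the WT control libraries. The 5 Sema3b-/- arthritis libraries held 0, 0.948, 2.01, 3.49 and 0 normalized counts, against 23.7, 34.0, 66.7, 51.9 and 45.6 in the WT arthritis libraries. No Sema3b-/- library reached the lowest WT library, in either condition. In reads, the Sema3b-/- libraries held between 0 and 6 each and the WT libraries between 16 and 78 each. The pooled log2 fold change was -4.35 ± 0.39 (SE, n = 9 per genotype; limma adjusted p = 1.31e-05). It was -4.19 ± 0.60 in control and -4.48 ± 0.54 in arthritic forepaws. CEL-seq samples the 3' end of an RNA, and the labels do not say which exons the mutation removes, so the check concerns that end only.

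**Figure D1:**
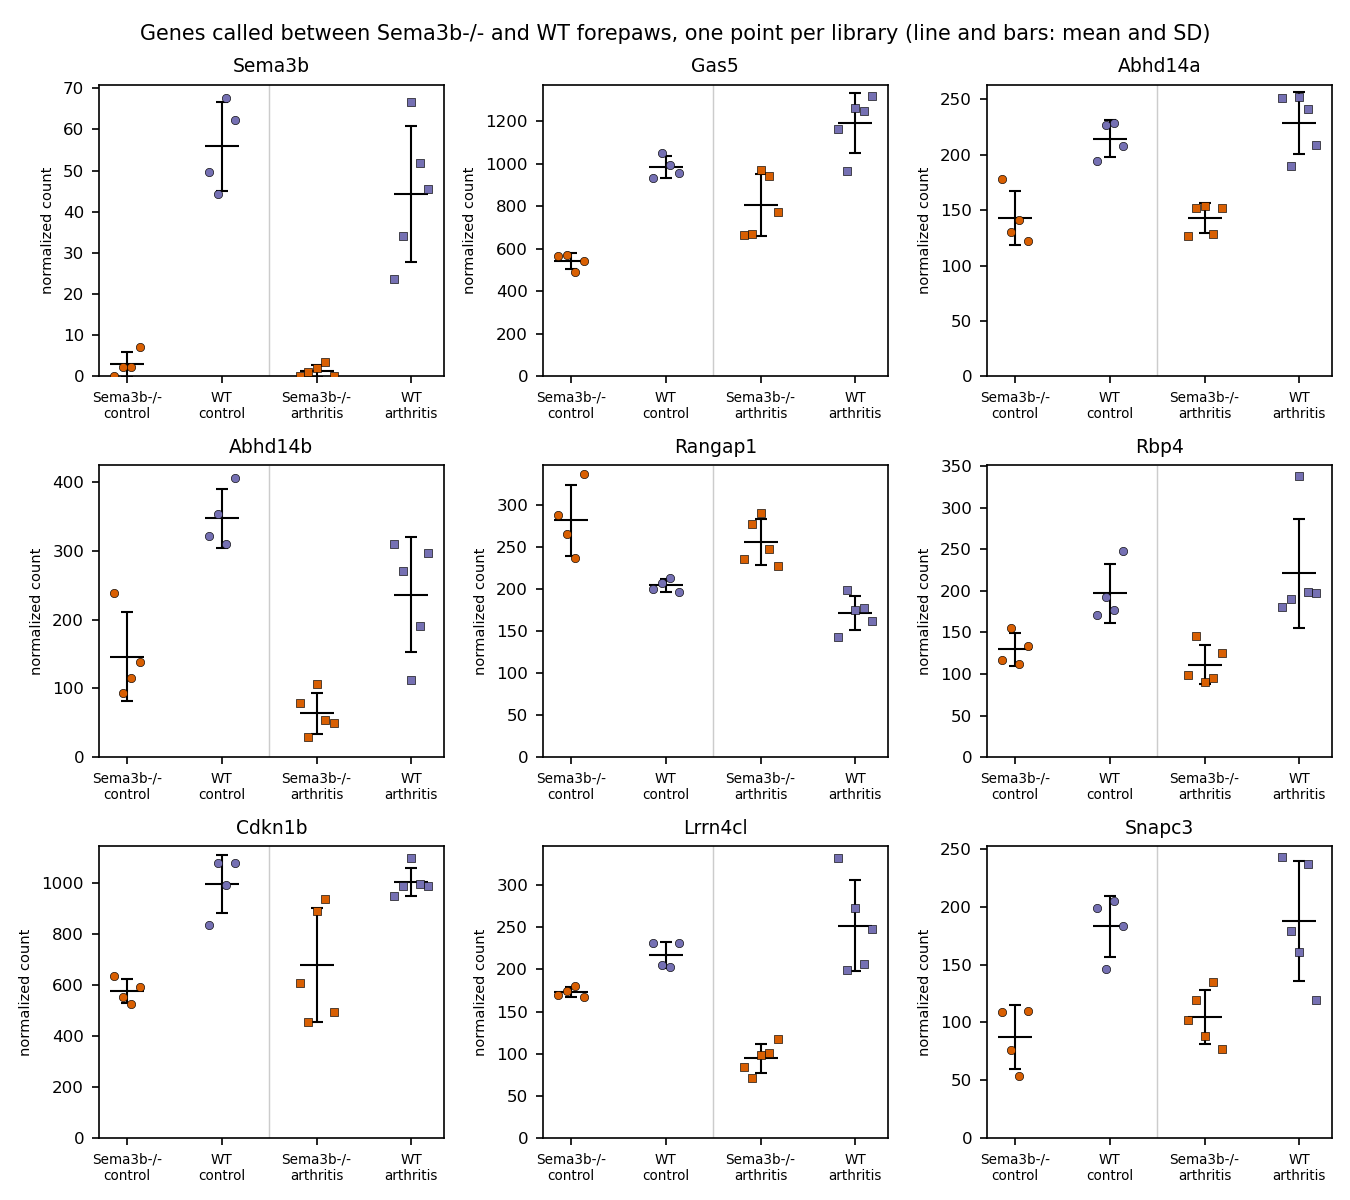
Normalized count (vertical axis, from 0) of the 9 genes called in the pooled comparison, one point per library, for Sema3b-/- and WT libraries in control (circles) and arthritis (squares); the horizontal line is the mean and the bar the SD. Sema3b-/- libraries sit below WT libraries in 8 of the 9 panels and above them for Rangap1, with overlap between genotypes in arthritis for Gas5 and Snapc3.

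Gas5 is a long non-coding RNA whose introns carry small nucleolar RNAs, and it is known to build up in cells that stop growing. Sema3b-/- control libraries held 566, 569, 488 and 542 normalized counts, against 934, 1051, 995 and 953 in WT control libraries. Sema3b-/- arthritis libraries held 662, 671, 971, 942 and 774, against 1164, 963, 1261, 1245 and 1320 in WT arthritis libraries. The genotypes were apart in control, while in arthritis the highest Sema3b-/- library lay just above the lowest WT library. Gas5 fell by 0.70 ± 0.09 on the log2 scale (SE, n = 9 per genotype; limma adjusted p = 0.00302). Gas5 lies at chr1:161034422-161038539 on the plus strand (GENCODE vM21, mm10) and overlaps Zbtb37, which lies on the other strand. The sources used here do not say whether reads were counted by strand, so reads of overlapping genes may be shared. Of 11 snoRNA host genes tested, Gas5 alone passed the adjusted test; the list's median log2 fold change was -0.12, beside 0.00 for all genes. Snhg11, another host gene, held between 5.94 and 21.6 normalized counts in Sema3b-/- control against 29.0 to 51.9 in WT control, and between 9.58 and 23.1 in Sema3b-/- arthritis against 13.8 to 35.5 in WT arthritis. Its pooled difference did not pass (limma adjusted p = 0.346).

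Abhd14a and Abhd14b are neighbouring genes of the alpha/beta hydrolase family that point away from each other, and the human ABHD14B protein has been described as a lysine deacetylase. They are the only called genes besides Sema3b that lie on chromosome 9. Abhd14a spans chr9:106440051-106447678 on the minus strand and Abhd14b spans chr9:106447459-106452923 on the plus strand, so that their annotated 5' ends overlap (GENCODE vM21, mm10). Sema3b lies at chr9:107597674-107609229 on the minus strand, 1.15 Mb from Abhd14a and 1.14 Mb from Abhd14b.

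Abhd14a held 178, 130, 141 and 122 normalized counts in Sema3b-/- control libraries, against 195, 227, 229 and 208 in WT control libraries. In arthritis it held 127, 152, 154, 129 and 152 in Sema3b-/- libraries, against 251, 190, 252, 242 and 209 in WT libraries. Every Sema3b-/- library was below every WT library. Abhd14a fell by 0.64 ± 0.09 on the log2 scale (SE; limma adjusted p = 0.00765), with -0.60 in control and -0.67 in arthritis.

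Abhd14b held 239, 92.7, 115 and 138 normalized counts in Sema3b-/- control libraries, against 322, 353, 310 and 405 in WT control libraries. Under arthritis the values were 79.0, 29.4, 107, 54.0 and 49.3 in Sema3b-/- libraries, against 310, 270, 113, 191 and 297 in WT libraries. The genotypes did not overlap within either condition, though the lowest WT arthritis library, replicate 3, was close to the highest Sema3b-/- arthritis library. Abhd14b fell by 1.65 ± 0.25 on the log2 scale (SE; limma adjusted p = 0.00924), with -1.33 in control and -1.91 in arthritis. Sema3b, Gas5, Abhd14a and Abhd14b kept an adjusted p under 0.05 in all 18 fits that each left out 1 library.

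The other genes around Sema3b were not called by the main limma test. Of the 28 tested genes listed as flanking Sema3b, limma-voom and limma with array weights each called 1, DESeq2 called 2 and edgeR 0. All of these were higher in Sema3b-/-. Within 1 Mb of it on chromosome 9, 0 of 51 tested genes passed the adjusted limma test and 6 had an unadjusted p under 0.05. Between 1 and 2 Mb, 2 of 29 passed (the Abhd14 pair) and 6 had an unadjusted p under 0.05, which is 20.7%. That share was 8.19% of the 598 genes over 10 Mb away on chromosome 9 and 9.64% of the 13030 genes on other chromosomes. Between 2 and 5 Mb, 0 of 55 genes passed, and between 5 and 10 Mb 0 of 43. By limma at an unadjusted p under 0.05, these 2 windows held 6 and 3 genes.

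Hyal1, a lysosomal enzyme that cuts hyaluronan, lies 0.016 Mb from Sema3b. It held 20.2, 45.3, 32.1 and 55.2 normalized counts in Sema3b-/- control libraries, against 12.2, 12.6, 18.8 and 19.6 in WT control libraries. Counts in arthritis were 27.2, 33.2, 28.1, 34.0 and 39.6 in Sema3b-/- libraries, against 20.7, 12.2, 20.7, 20.4 and 16.5 in WT libraries. The genotypes did not overlap within either condition, but the pooled difference of 0.97 ± 0.21 (log2, SE) did not pass (limma adjusted p = 0.127). It passed without Sema3b-/- control replicate 1 (0.0386). Hyal1 shares its place with the annotated genes Naa80 and Hyal3 on the same strand. Reads there were few, between 5 and 81 per Sema3b-/- library and between 11 and 28 per WT library. Of the 28 tested genes listed as flanking Sema3b, 3 (all higher in Sema3b-/-) had an unadjusted p under 0.05, beside 9.61% of all genes; over all 51 tested genes within 1 Mb there were 3 higher and 3 lower. They were Hyal1, Hemk1 (log2 fold change 0.87 ± 0.23, SE) and Tusc2 (0.43 ± 0.13). Mst1r, a receptor tyrosine kinase gene, gave -0.72 ± 0.36 and did not pass that threshold. The median of the 28 was 0.04, and Gnai2, a G protein subunit gene next to Sema3b, gave 0.13 ± 0.15.

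**Figure D2:**
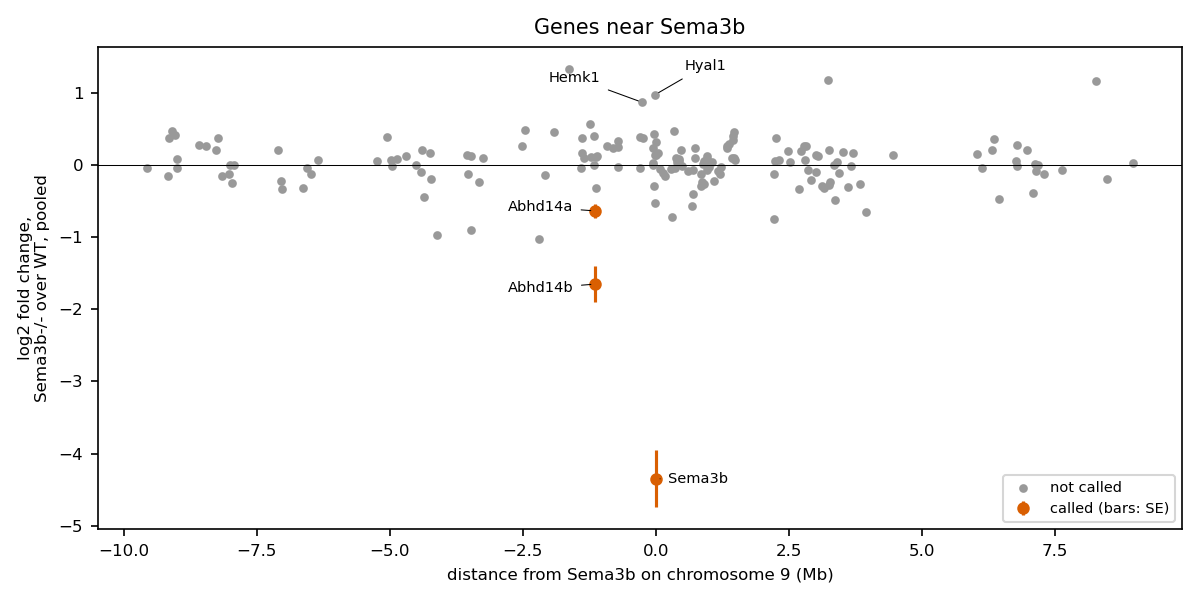
Pooled log2 fold change, Sema3b-/- over WT, of tested genes within 10 Mb of Sema3b on chromosome 9 (vertical axis) by signed distance in Mb (horizontal axis); orange points are called genes with SE bars and grey points are not called. Sema3b at -4.35, Abhd14a at -0.64 and Abhd14b at -1.65 are the called points; Sema3b and Abhd14b lie below all uncalled genes, the lowest of which is Aste1 at -1.03, while Abhd14a lies within their range. The highest point, an uncalled gene between 1 and 2 Mb from Sema3b, is at 1.33. Genes listed as flanking Sema3b lie on both sides of 0. Hyal1 at 0.97 and Hemk1 at 0.87 lie above it, and Mst1r at -0.72 and Hyal3 at -0.53 below it.

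Rangap1, the protein that stimulates GTP hydrolysis by Ran and so drives nuclear transport, was the 1 gene called higher. It held 287, 265, 236 and 337 normalized counts in Sema3b-/- control libraries, against 200, 208, 213 and 196 in WT control libraries. With arthritis, it held 236, 278, 290, 247 and 228 in Sema3b-/- libraries, against 143, 199, 175, 178 and 162 in WT libraries. All 9 Sema3b-/- libraries were above all 9 WT libraries. The log2 fold change was 0.52 ± 0.09 (SE; limma adjusted p = 0.0322), or 1.43-fold. Rangap1 overlaps Zc3h7b, annotated on the other strand, so reads may be shared as for Gas5.

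Rbp4 encodes the carrier of retinol in blood, made by liver and by fat cells. It held 117, 156, 112 and 134 normalized counts in Sema3b-/- control libraries, against 171, 192, 176 and 248 in WT control libraries. In arthritis it held 98.5, 146, 90.5, 95.8 and 126 in Sema3b-/- libraries, against 180, 191, 338, 199 and 197 in WT libraries. No Sema3b-/- library reached a WT library, and WT arthritis replicate 3 was the highest of all. Rbp4 fell by 0.80 ± 0.14 on the log2 scale (SE; limma adjusted p = 0.0322).

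Cdkn1b encodes p27, an inhibitor of cyclin-dependent kinases. It held 635, 552, 527 and 592 normalized counts in Sema3b-/- control libraries, against 834, 1076, 993 and 1077 in WT control libraries. Under arthritis the values were 609, 456, 891, 936 and 493 in Sema3b-/- libraries, against 949, 987, 1096, 994 and 986 in WT libraries. The genotypes did not overlap within a condition, although Sema3b-/- arthritis replicates 3 and 4 came close to the WT arthritis libraries. Cdkn1b fell by 0.70 ± 0.12 on the log2 scale (SE; limma adjusted p = 0.0322).

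Lrrn4cl, a gene of the leucine-rich repeat neuronal family by name, held 170, 174, 180 and 168 normalized counts in Sema3b-/- control libraries, against 231, 206, 203 and 231 in WT control libraries. Counts in arthritis were 84.2, 72.0, 98.5, 101 and 117 in Sema3b-/- libraries, against 333, 200, 272, 207 and 248 in WT libraries. Every Sema3b-/- library was below every WT library. The pooled fall was 0.92 ± 0.16 on the log2 scale (SE; limma adjusted p = 0.0322). The size was uneven, with a log2 fold change of -0.33 ± 0.17 in control and -1.40 ± 0.15 in arthritis. The difference between these 2 effects had an unadjusted p of 0.000162 and did not pass over all genes (limma adjusted p = 0.449).

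Snapc3 encodes a subunit of the complex that starts transcription of small nuclear RNA genes. It held 109, 76.5, 53.4 and 110 normalized counts in Sema3b-/- control libraries, against 199, 146, 205 and 183 in WT control libraries. With arthritis, it held 102, 119, 88.5, 135 and 77.1 in Sema3b-/- libraries, against 242, 179, 161, 236 and 120 in WT libraries. The genotypes were apart in control and overlapped in arthritis, where the lowest WT library was below the highest Sema3b-/- library. Snapc3 fell by 0.95 ± 0.17 on the log2 scale (SE; limma adjusted p = 0.0322). Psip1, annotated on the other strand, overlaps Snapc3, so reads may be shared here too. Rangap1, Rbp4 and Lrrn4cl each kept an adjusted p under 0.05 in 7 of the 18 fits that left out 1 library, and Cdkn1b and Snapc3 in 4 of 18. The highest adjusted p among those fits was 0.0961. Sample titles carry 1 of 3 set words outside their brackets: MI in all 8 control titles, Joint in 7 arthritis titles and RA in the other 3. With this title set as a block in place of treatment these 5 calls were also lost, at adjusted p between 0.0586 and 0.0698, and the other 4 were kept.

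Fewer genes were called within 1 condition than over both. For these contrasts the spread was estimated over all 18 libraries. The control contrast gave 2 called genes, 0 higher and 2 lower (0.0145% of those tested), which were Sema3b and Gas5. Both calls were lost with sex as a term, and sex differed between the control groups (2 females and 2 males in Sema3b-/-, 4 females in WT). Leaving out 1 control library gave 0 calls in 7 of 8 fits and 1 call without Sema3b-/- control replicate 4. The control contrast also gave 0 calls without WT arthritis replicate 4 or 5, and 1 to 3 without any other arthritis library. The arthritis contrast gave 3, 0 higher and 3 lower (0.0217%), which were Sema3b, Lrrn4cl and Tmem100, a membrane protein gene of endothelial cells. At an unadjusted p under 0.05 there were 811 genes in control and 1239 in arthritis. For the difference between the effects, limma called 0 genes (0%), with 663 at an unadjusted p under 0.05 and a smallest adjusted p of 0.449. On recovered reads, edgeR and limma-voom also called 0 and DESeq2 called 8. In the authors' deposited table, at an adjusted p under 0.05, 0 genes were called between genotypes in control and 2 in arthritis, Sema3b and Lrrn4cl, both lower in Sema3b-/-.

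Tmem100 was not called over both conditions (limma adjusted p = 0.287). It held 680, 596, 700 and 618 normalized counts in Sema3b-/- control libraries against 585, 598, 537 and 768 in WT control libraries. In arthritis it held 298, 255, 280, 374 and 343 in Sema3b-/- libraries, against 973, 588, 913, 513 and 579 in WT libraries. The genotypes overlapped in control and were apart in arthritis. Its log2 fold change was 0.07 in control and -1.16 in arthritis (limma adjusted p = 0.0106 in arthritis), with an unadjusted p of 0.000142 for the difference between them (adjusted p = 0.449).

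The control and arthritis fold changes share no library. Over all 13809 tested genes, 7504 (54.3%) had the same sign in both, and the correlation of the log2 fold changes across genes was 0.079 (Pearson) and 0.117 (Spearman). These describe genes within 1 set of libraries, and genes are not independent replicates. The genotypes did not overlap in control nor in arthritis, in the same direction, for 17 genes (0.123% of those tested), 5 higher in Sema3b-/- (0.0362%) and 12 lower (0.0869%). Of the 17, 7 were among the 9 called genes, and Gas5 and Snapc3 were not. Those not called include Tshr, the thyrotropin receptor gene, and Hbegf, a growth factor of the epidermal growth factor family. Tshr held between 23.7 and 40.5 normalized counts in Sema3b-/- control against 43.1 to 78.8 in WT control, and between 7.58 and 24.6 in Sema3b-/- arthritis against 26.6 to 75.9 in WT arthritis. Its pooled log2 fold change was -1.20 ± 0.26 (SE; limma adjusted p = 0.127). Hbegf held between 168 and 217 in Sema3b-/- control against 274 to 313 in WT control, and between 80.3 and 202 in Sema3b-/- arthritis against 208 to 1273 in WT arthritis. Its pooled log2 fold change was -1.06 ± 0.30 (limma adjusted p = 0.247), and -0.81 without WT arthritis replicate 1, which held the highest value.

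**Figure D3:**
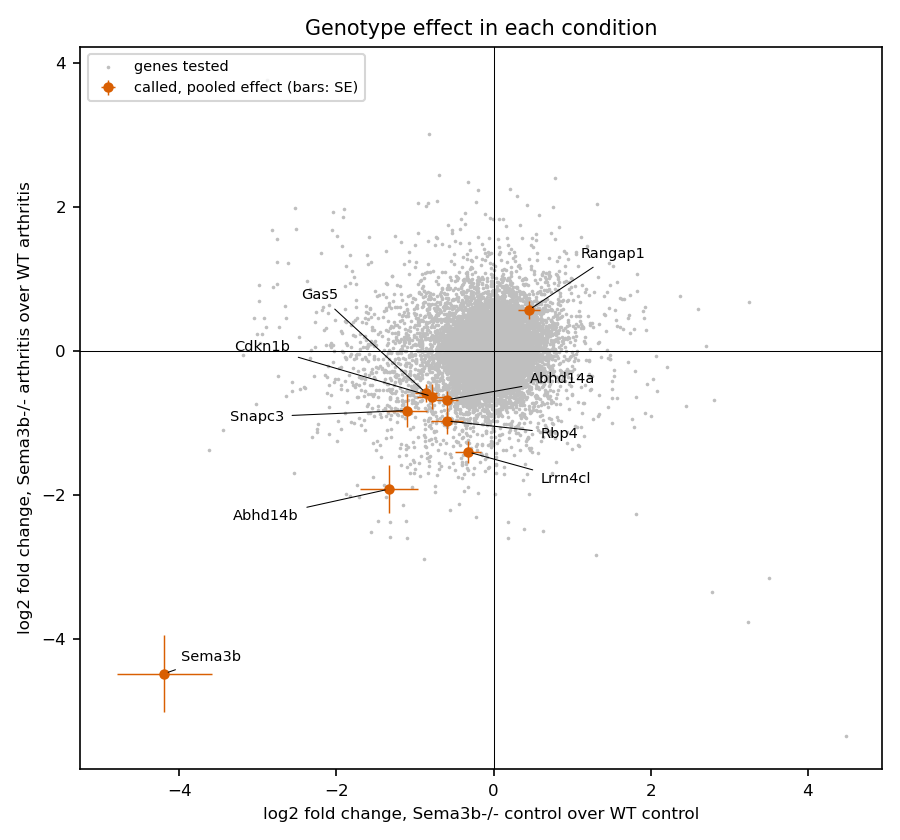
Log2 fold change, Sema3b-/- over WT, in control (horizontal axis) and in arthritic forepaws (vertical axis) for the 13809 tested genes (grey); orange points are the 9 genes called over both conditions, with SE bars. Sema3b lies far from all other genes at the lower left, 7 further called genes lie below 0 on both axes, Rangap1 lies above 0 on both, and the grey cloud has little slope.

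After the 9 called genes, the 11 with the next lowest p give the edge of the list, none of them called. Of these, 10 were lower in Sema3b-/- and 1, Hyal1, was higher. Rgs5, a regulator of G protein signalling found in pericytes, held between 49.2 and 79.5 normalized counts in Sema3b-/- control against 84.4 to 147 in WT control, and between 31.1 and 132 in Sema3b-/- arthritis against 130 to 253 in WT arthritis. It was the nearest to a call, at -1.22 ± 0.23 on the log2 scale (SE; limma adjusted p = 0.0579). Pla2g2d, a secreted phospholipase, gave -0.93 ± 0.18 (adjusted p = 0.0784). Rarres2, which encodes the adipokine chemerin, gave -0.73 ± 0.15, and Scd1, the desaturase that makes monounsaturated fatty acids, gave -1.05 ± 0.21. Cdo1, a cysteine dioxygenase gene, gave -0.96 ± 0.20, and Dcn, which encodes the matrix proteoglycan decorin, gave -0.55 ± 0.12. Zfp644 gave -0.68 ± 0.15, Gpnmb -0.82 ± 0.18 and Kitl, the ligand of the Kit receptor, -0.49 ± 0.11. Without Sema3b-/- control replicate 1, the shallowest library, Rgs5, Rarres2, Scd1, Dcn and Kitl passed an adjusted p of 0.05. Rgs5, Pla2g2d, Scd1 and Zfp644 also passed without 1 or 2 other libraries.

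Fat cell genes were the list with the lowest median. Adipocytes store lipid and secrete hormones such as adiponectin and leptin, and lie in the skin and around the joints of the paw. Of 11 adipocyte genes tested, 0 were called by limma, all 11 had a negative log2 fold change, and 10 had an unadjusted p under 0.05, beside 5.20% of all genes on that side. The list's median log2 fold change was -0.79, with -0.63 in control and -1.04 in arthritis, beside 0.00, -0.01 and 0.00 for all genes. Its members lay between -1.42 and -0.38.

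Adipoq, which encodes adiponectin, held 1117, 861, 556 and 734 normalized counts in Sema3b-/- control libraries, against 1292, 1331, 1534 and 1446 in WT control libraries. Under arthritis the values were 1003, 551, 351, 586 and 346 in Sema3b-/- libraries, against 455, 1420, 1061, 1082 and 1957 in WT libraries. The genotypes were apart in control and overlapped in arthritis, where WT arthritis replicate 1 was low and Sema3b-/- arthritis replicate 1 was high. The pooled log2 fold change was -0.94 ± 0.25 (SE; limma adjusted p = 0.201). Lep, which encodes leptin, gave -1.42 ± 0.39 (adjusted p = 0.223).

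Together the adipocyte genes took 0.240 to 0.293% of the normalized counts in Sema3b-/- control libraries and 0.363 to 0.492% in WT control libraries. In arthritis they took 0.116 to 0.314% in Sema3b-/- libraries and 0.192 to 0.362% in WT libraries. In RNA from whole tissue, fewer cells of a type and less RNA per cell cannot be told apart, here and in all lists that follow. With sex as a term the list's median was -0.81 and 10 members again had an unadjusted p under 0.05. The only WT arthritis library among the female libraries was replicate 1, which stood apart in its mitochondrial reads. In the female libraries alone the median was -0.24, and 9 of 11 members were negative. The part that tissue content plays in the lower Rbp4, Rarres2 and Scd1 values was not tested.

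Genes of the cell cycle lay on the other side. They encode the kinases, cyclins and replication proteins that dividing cells make. Of 15 tested, 0 were called by limma, 14 had a positive log2 fold change and 12 had an unadjusted p under 0.05, all higher in Sema3b-/-, beside 4.41% of all genes on that side. The median was 0.55, with 0.57 in control and 0.46 in arthritis, and between 0.46 and 0.62 with any 1 library left out. Birc5, which encodes survivin, held 121, 260, 141 and 173 normalized counts in Sema3b-/- control libraries, against 124, 106, 111 and 65.7 in WT control libraries. Counts in arthritis were 259, 382, 136, 275 and 180 in Sema3b-/- libraries, against 133, 175, 154, 137 and 128 in WT libraries. The genotypes overlapped in both conditions, with most Sema3b-/- libraries above the WT ones. Birc5 gave 0.71 ± 0.19 on the log2 scale (SE; limma adjusted p = 0.198) and Cdk1, the kinase of mitotic entry, 0.63 ± 0.18 (adjusted p = 0.270). In the female libraries alone, again with only replicate 1 for WT arthritis, the list's median was 0.67.

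Erythroid and neutrophil genes, which mark red cell precursors and neutrophils, also had positive medians in control forepaws. The 6 tested erythroid genes were all positive, with 0 called and 0 at an unadjusted p under 0.05; their median was 1.42 in control and -0.06 in arthritis. The 16 neutrophil genes had a median of 0.73 in control and -0.01 in arthritis. Erythroid genes took 0.00506 to 0.0409% of the normalized counts in Sema3b-/- control libraries, against 0.00356 to 0.0128% in WT control libraries. Neutrophil genes took 0.128 to 0.716% in Sema3b-/- control libraries, against 0.147 to 0.236% in WT control libraries. Sema3b-/- control replicate 2 had the highest share of its group for erythroid, neutrophil and cell cycle genes alike. Without it the control medians were 0.97 for erythroid, 0.38 for neutrophil and 0.41 for cell cycle genes. In arthritis the erythroid and neutrophil shares overlapped between genotypes. The part of these cells in the cell cycle values was not tested.

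**Figure D4:**
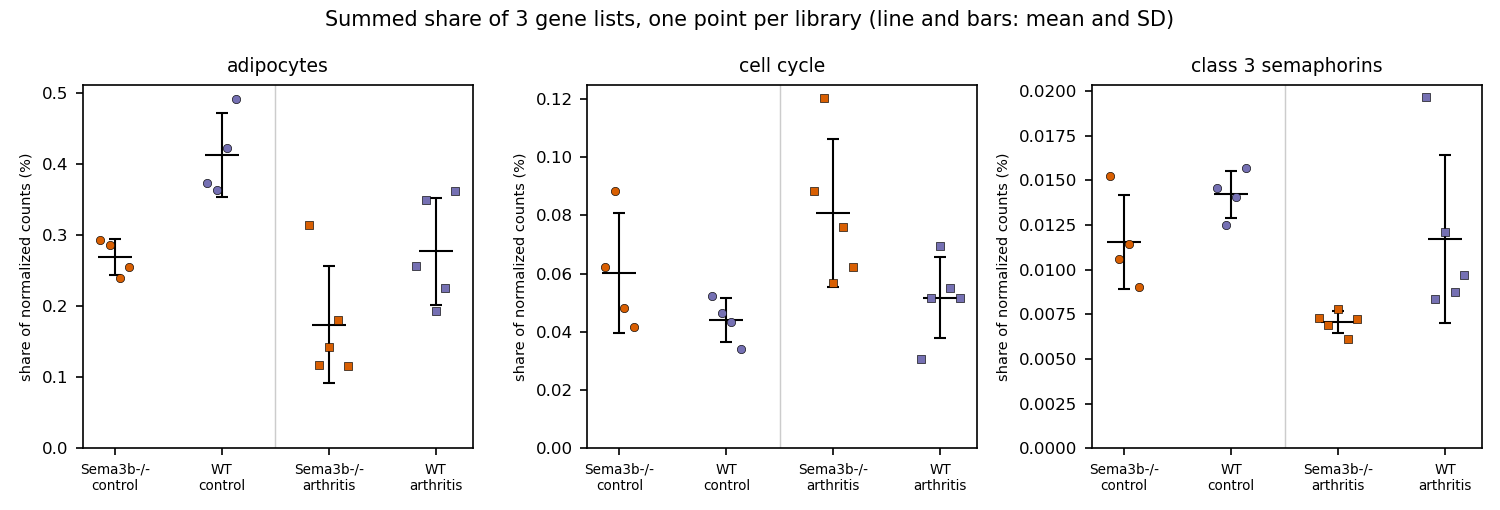
Share of all normalized counts (percent, vertical axis from 0) taken by the adipocyte, cell cycle and class 3 semaphorin lists in each library, by group. Lines and bars are means and SD. The class 3 semaphorin share includes Sema3b itself. For adipocytes the Sema3b-/- control libraries (0.240 to 0.293%) lie below the WT control libraries (0.363 to 0.492%), and 1 WT arthritis library is far above the others in the class 3 semaphorin panel.

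The other class 3 semaphorins were not called. Of 7 listed, 6 were tested and Sema3g had too few reads. Of the 6, 3 including Sema3b were lower at an unadjusted limma p under 0.05, beside 5.20% of all genes. Sema3a, Sema3c, Sema3d and Sema3e had negative pooled log2 fold changes, between -0.59 for Sema3d and -0.50 for Sema3a, and Sema3f lay near 0. The list's median, Sema3b included, was -0.39 in control and -0.78 in arthritis, and -0.40 in arthritis without WT arthritis replicate 1. For the difference between conditions, 1 of the 6 had an unadjusted limma p under 0.05, beside 663 of all 13809 genes. Of the 6, 0 passed the adjusted limma test for that difference. By the authors' deposited values Sema3c gave 0.05 in control and -1.05 in arthritis, and Sema3a gave -0.11 and -0.90. Sema3d gave -0.20 and -1.13 there, and Sema3e -0.51 and -0.87. Sema3d held between 120 and 211 normalized counts in Sema3b-/- control against 159 to 219 in WT control, and between 49.2 and 86.4 in Sema3b-/- arthritis against 78.3 to 384 in WT arthritis. The groups overlapped in both conditions, and the value of 384 was that of WT arthritis replicate 1. Without that library the log2 fold change of Sema3d was -0.37, that of Sema3a was -0.29 in place of -0.50, that of Sema3c was -0.36 in place of -0.52, and that of Sema3e was -0.30 in place of -0.51.

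Among the receptors, 0 of 11 were called by limma, and 3 had an unadjusted p under 0.05, 2 higher and 1 lower, beside 9.61% of all genes. The ligand-binding receptor Nrp1 gave a log2 fold change of -0.14 ± 0.09 and held between 713 and 1147 normalized counts in Sema3b-/- libraries, against 755 to 1307 in WT libraries. The plexins Plxna1 and Plxnb2 both gave 0.31 (SE 0.14 and 0.12; limma adjusted p = 0.480 and 0.412), while Plxna2 gave -0.31 ± 0.15 (adjusted p = 0.509). By the authors' deposited values, Plxna1 gave -0.004 in control and 0.53 in arthritis, Plxnb2 0.21 and 0.40, and Plxna2 -0.02 and -0.51. The median of the 11 was 0.07, with -0.07 in control and 0.27 in arthritis, and 0.20 without WT arthritis replicate 1.

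**Figure D5:**
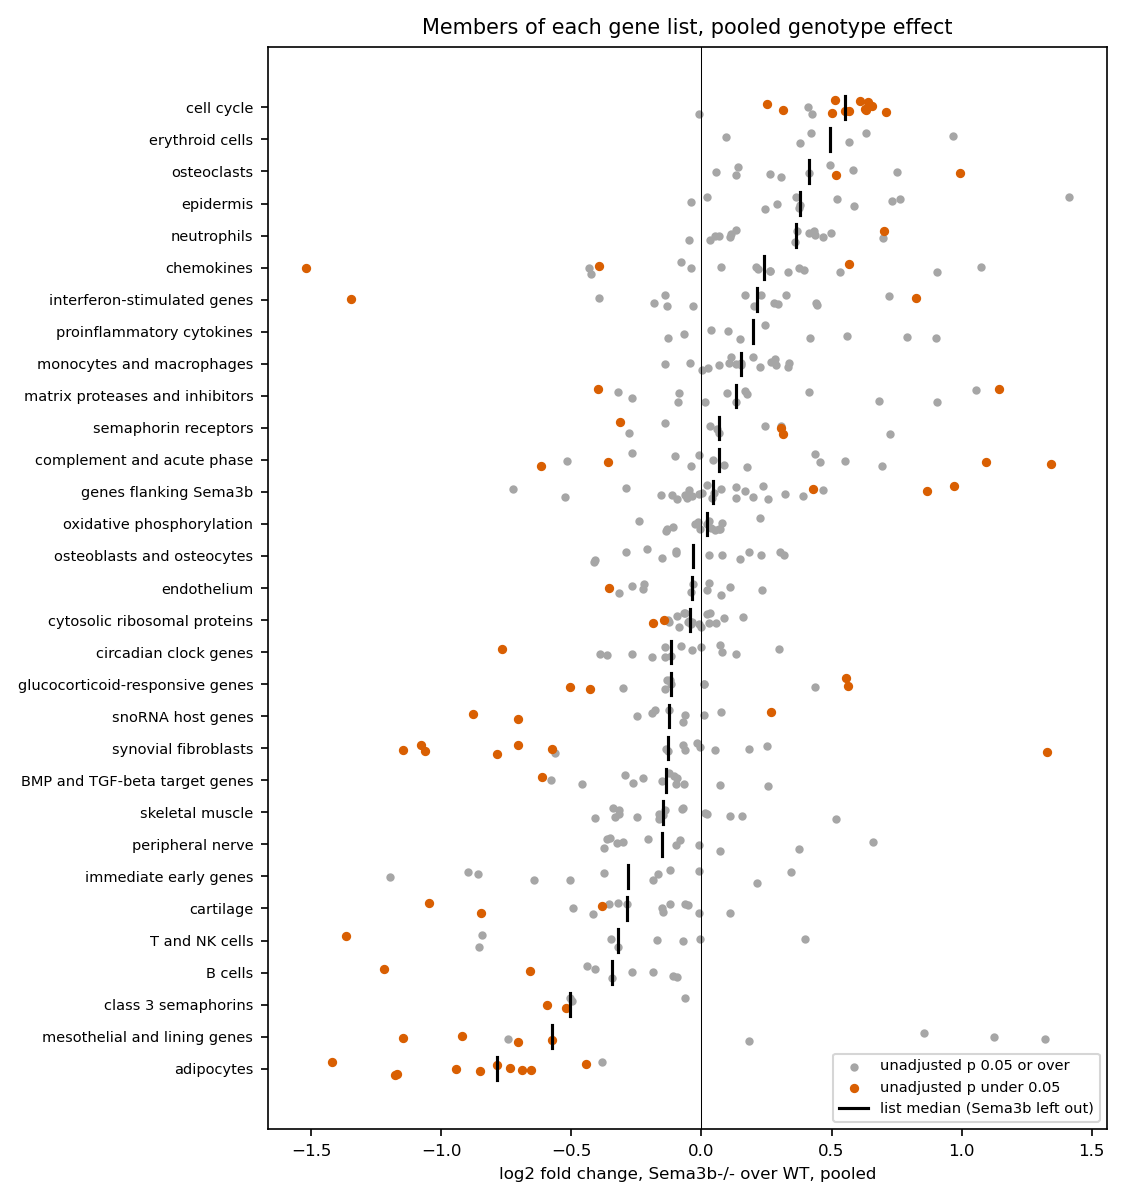
Pooled log2 fold change, Sema3b-/- over WT (horizontal axis), of each tested member of 31 gene lists (vertical axis, ordered by median); orange points have an unadjusted limma p under 0.05, grey points do not, and black bars are list medians. Adipocyte genes lie at the low end with a median of -0.79 and cell cycle genes at the high end with 0.55, while most other lists straddle 0; Sema3b itself is left out.

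Bone-resorbing cells, cartilage and the joint lining showed smaller or less even differences. All 11 tested osteoclast genes had positive log2 fold changes, with a median of 0.41; 0 were called by limma and 2, Ocstamp and Tnfrsf11a, had an unadjusted p under 0.05, beside 4.41% of all genes on that side. The median was 0.23 without Sema3b-/- control replicate 2. Ocstamp, which osteoclast precursors need to fuse, gave 0.99 ± 0.41, and Tnfrsf11a, the receptor RANK, gave 0.52 ± 0.21. In the female libraries alone, with only replicate 1 for WT arthritis, 6 of the 11 osteoclast genes were positive, with a median of 0.03. Of 17 synovial fibroblast genes, 0 were called by limma, with a median of -0.13. At an unadjusted p under 0.05, 6 were lower and 1 was higher, beside 5.20% of all genes lower and 4.41% higher. Of 9 mesothelial and lining genes, 1, Lrrn4cl, was called, and 4 were lower at an unadjusted p under 0.05. In that list 5 genes were negative and 4 positive. Its median was -0.58, and -0.17 without Sema3b-/- control replicate 1. Clic5, a gene of lining fibroblasts, gave -1.15 ± 0.40, and -0.81 without WT arthritis replicate 1, which held 4493 normalized counts where the other 4 WT arthritis libraries held 323 to 769.

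Cartilage genes had a median log2 fold change of 0.56 in control and -0.91 in arthritis, which pooled to -0.29 over 15 genes. The pooled median was -0.17 without WT arthritis replicate 1, -0.04 without WT arthritis replicate 3 and 0.05 with edgeR, and the control median was -0.02 without Sema3b-/- control replicate 2 and 1.38 without Sema3b-/- control replicate 4. Chemokines and interferon-stimulated genes had medians of the opposite signs in the 2 conditions. The 18 chemokines had medians of -0.61 in control and 0.89 in arthritis, and the 16 interferon-stimulated genes -0.36 and 0.55. With 1 library left out the arthritis medians ran between 0.51 (without WT arthritis replicate 2) and 1.22 for chemokines, with 0.55 without WT arthritis replicate 1, and between 0.29 (without Sema3b-/- arthritis replicate 5) and 0.80 for interferon-stimulated genes. For the difference between conditions, 2 of 15 cartilage genes, 5 of 18 chemokines and 5 of 16 interferon-stimulated genes had an unadjusted p under 0.05, beside 663 of all 13809 genes, and 0 passed the adjusted limma test. The genotype difference in control libraries stood beside an uneven content of bone: osteoblast and osteocyte genes took 0.826 to 9.58% of the normalized counts in Sema3b-/- control libraries, against 2.29 to 2.83% in WT control libraries. Its part in the control medians was not tested.

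The monocyte and macrophage, neutrophil and cytokine lists held few genes past the unadjusted threshold. Of 17 monocyte and macrophage genes, 0 had an unadjusted p under 0.05 and 0 were called by limma, with a median of 0.15, and 0.04 without WT arthritis replicate 2. Of 16 neutrophil genes, 0 were called and 1 had an unadjusted p under 0.05, with a pooled median of 0.36. That median was 0.12 without WT arthritis replicate 1 and 0.04 without that library, WT arthritis replicate 3 and Sema3b-/- control replicate 1. It was 0.49 without Sema3b-/- arthritis replicate 3. Among the female libraries alone, with only replicate 1 for WT arthritis, it was 1.01. Of 10 proinflammatory cytokine genes tested, 0 were called and 0 had an unadjusted p under 0.05. Of 9 T and NK cell genes, 0 were called and 1 was lower at an unadjusted p under 0.05, beside 5.20% of all genes. Among them 8 were negative, with a median of -0.32. Of 9 B cell genes, 0 were called by limma and 2 were lower at an unadjusted p under 0.05, beside the same 5.20%. All 9 B cell genes were negative over both conditions, with a median of -0.34, which was 0.10 in control and -0.69 in arthritis. It was -0.15 without Sema3b-/- arthritis replicate 3 and -0.54 without Sema3b-/- control replicate 2. With edgeR 7 of 9 were negative (median -0.08), and with DESeq2 also 7 (median -0.09). DESeq2 called 1 of the B cell genes, lower in Sema3b-/-, and edgeR 0. Ebf1, a transcription factor of B cells that fat cell precursors also make, gave -0.66 ± 0.16 (SE; limma adjusted p = 0.152).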

How the data were processed

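RNA from 18 mouse forepaws was sequenced by CEL-seq. The submitters' processing notes name BWA, the mm10 build and DESeq2 1.32; no source used here gives the counting tool, the strand setting or any removal of duplicate molecules. One deposited table holds, per gene and library, a signal that is a normalized count (reads divided by a size factor). Further deposited tables hold the authors' log2 fold changes and p-values, used here for both genotype contrasts. Dividing each column by the value of 1 read gave whole reads within 0.02 for 100% of values, from which total reads and the count models come. The 7 spike-in entries, with 11 reads in all, were left out, and 26 gene names turned into dates were restored, leaving 18578 genes.

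The main test was limma 3.58.1 (R 4.3.3, trend and robust empirical Bayes) on log2 of the normalized count plus 1, with treatment and genotype as terms. A gene was tested if at least 4 libraries held a value of 10 or more. A second model with 4 group means gave the effect within each condition and their difference. P-values were adjusted by Benjamini-Hochberg over all tested genes, two-sided, and a call is an adjusted p under 0.05. edgeR 4.0.16, DESeq2 1.42.0, limma-voom, other scalings, filters and blocks were alternatives. The scripts were tested on simulated data.

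Errors of fold changes are SE. Groups came from the labels; 1 arthritis column carries a control suffix in its name, but its title and treatment label give arthritis. Sampling noise did not account for the differences within any group, so no library was counted as a duplicate. For a gene without reads, the limit is 3 reads, equal to 12.1 normalized counts at the lowest depth and 1.31 at the highest, for counting error only. Genes named with values are the 20 with the lowest pooled p, Sema3b, its family, receptors and neighbours, and the 2 members of each list with the lowest p, of which many are given only in counts. The comparison, gene lists and named genes were chosen with earlier results of these data known. Sex was read from Xist and Y-linked genes. Positions are 1-based, from GENCODE vM21.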

Additional observations from a re-analysis of the deposited data

Results flagged for a closer look

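In 24 of 216 sets of a named gene in a group (54 genes, 4 groups), 1 library stood far from the rest of its group. For normally distributed values chance gives about 1 in 20. The values here were normalized counts without a log, and the sets share libraries, so that rate is only a rough guide. WT arthritis replicate 1 was such a library for 6 genes. It held 1273 normalized counts of Hbegf (208 to 508 in the other WT arthritis libraries), 384 of Sema3d (78.3 to 122), 535 of Sema3a (104 to 172), 35.5 of Snhg11 (13.8 to 17.7), 4493 of Clic5 (323 to 769) and 633 of Clec3a (35.7 to 186).

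Other arthritis libraries stood apart for 1 gene or 2. Rbp4 was at 338 in WT arthritis replicate 3 (180 to 199 in the others), and Mx2 at 28.5 in WT arthritis replicate 5 (8.05 to 11.9). Among Sema3b-/- arthritis libraries, Cdo1 was at 327 in replicate 1 (126 to 152), Cdk1 at 1120 in replicate 2 (508 to 658), and Ptx3 at 515 in replicate 2 (179 to 269). Nrp1 was low at 885 in replicate 4 (1079 to 1147), and in replicate 5 C4b was at 39.6 (18 to 20.9) and Mx2 at 22.2 (4.02 to 8.53).

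Among Sema3b-/- control libraries, replicate 1, the shallowest, held 1428 of Clic5 (625 to 662 in the others) and 562 of Igj (38 to 97.2). Cdk1 was at 524 in replicate 2 (359 to 380) and Mt2 at 3237 in replicate 4 (1473 to 1677). Among WT control libraries, replicate 4 held 40324 of Dcn (32806 to 33828) and 244 of Kitl (174 to 182), and replicate 3 held 193 of Sema3a (143 to 150). Nrp1 was low at 755 in replicate 1 (990 to 1028), Ifrd2 was low at 84.8 in replicate 2 (107 to 111), and Mx2 was at 18 in replicate 2 (7.51 to 8.53).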

How the results depend on the processing

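The pooled count of 9 called genes was the same with 4 group means, pseudocounts of 0.5 and 5, no filter, a filter at 50, trimmed-mean scaling and no robust option. It was 10 with sex as a term, 7 with edgeR and 13 with limma-voom. It was 4 with the title set (MI, Joint or RA) as the block, 37 with array weights and 98 with DESeq2 (36 higher, 62 lower). Leaving out 1 library gave 4 to 19, the highest without Sema3b-/- control replicate 1, and the lowest without WT control replicate 1, WT control replicate 4 or Sema3b-/- arthritis replicate 5. It was 5 without WT control replicate 2, Sema3b-/- arthritis replicate 1 or 2, or WT arthritis replicate 5. Chosen after the data were seen, leaving out 3 libraries (Sema3b-/- control 1, WT arthritis 1 and 3) gave 6. Leaving out arthritis libraries with RA in place of Joint in the title, also chosen then, gave 1, Sema3b. In that fit the limma adjusted p was 0.0620 for Gas5, 0.0679 for Abhd14a and 0.0620 for Abhd14b. The female libraries alone, a further such choice, hold only replicate 1 for WT arthritis, so only effect sizes are given for them. In those Sema3b had a log2 fold change of -3.98.

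The count of 2 in control was 0 with sex as a term, with a pseudocount of 0.5, with a filter at 50 and with limma-voom (882, 808, 597 and 794 genes at an unadjusted p under 0.05). It was 1 with no filter and 5 with DESeq2, and 0 to 3 with 1 library left out. The count of 3 in arthritis was 38 with array weights and 92 with DESeq2, and 2 to 6 with 1 library left out. The count of 0 for the difference between conditions was 8 with DESeq2. The cause of these shifts was not tested.

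Of the 5 calls with an adjusted p of 0.0322, that of Rangap1 held without any 1 of Sema3b-/- control 1 to 4, WT control 3 or WT arthritis 1 and 2. Rbp4 held without Sema3b-/- control 1, 2 or 4, WT control 3, Sema3b-/- arthritis 2 or WT arthritis 1 or 3, and Lrrn4cl without Sema3b-/- control 1 to 4, WT control 2 or 3 or WT arthritis 1. Cdkn1b held without Sema3b-/- control 1, Sema3b-/- arthritis 3 or 4 or WT arthritis 1, and Snapc3 without Sema3b-/- control 1 or 4, Sema3b-/- arthritis 4 or WT arthritis 5. Leaving out any other library ended the call, and none of the 54 genes given with values turned its direction under any setting.

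With the replicate number as a block the pooled count was 6 and the control count 1. No pairing by number was seen: correlations of the 25 same-number pairs ran between -0.658 and 0.414, with 7 over 0.1. Of 18 libraries, 3 were closest to their own number. With 4 or 5 libraries per group this check cannot exclude pairing. Depth limits genes such as Hyal1 and Sema3b, which held under 100 reads in each library.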
